A study of Caenorhabditis elegans with 12 samples.

Results

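The genes described here are hsp-16.2, hsp-16.41, hsp-17 and hsp-70, 4 chaperone genes of Caenorhabditis elegans that are known for their induction by heat. They were chosen by gene symbol, from the array's annotation of its probe sets, out of 17118 genes with a symbol of their own on the array. Each of the 4 had 1 probe set: 188282_at for hsp-16.2, 188444_at for hsp-16.41, 189735_at for hsp-17 and 192266_s_at for hsp-70. All 4 probe sets passed the filter on low values, which 12057 of 22625 passed. In the RefSeq table the genes have the sequence names Y46H3A.3, Y46H3A.2, F52E1.7 and C12C8.1, and hsp-16.2 and hsp-16.41 are immediate neighbours among protein-coding genes.

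Whole worms of the wild-type strain N2 ate HT115 E. coli that carry an RNA interference (RNAi) construct for 3 days, starting at day 1 of adulthood, and were collected as day 3 adults. The 4 RNAi groups held 3 arrays each: hsp-6;hsf-1, hsp-6;dve-1, hsp-6, and empty vector. The first group is called hsf-1 double RNAi below. The next is called dve-1-labelled double RNAi, because a dve-1 probe set went against that label and a further one differed little. The targets are hsp-6, which encodes the mitochondrial Hsp70 chaperone, hsf-1, which encodes the heat shock transcription factor, and dve-1, whose homeodomain protein acts in the unfolded protein response of mitochondria. The comparisons below ask whether the 4 genes respond to hsp-6 RNAi, and whether they do so when hsf-1 or dve-1 RNAi is added.

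In the heat shock response, HSF-1 binds heat shock elements in the promoters of chaperone genes and switches on their transcription when proteins misfold in the cytosol. The hsp-16 genes and hsp-17 encode small heat shock proteins, which hold unfolded proteins without using ATP, and hsp-70 encodes a cytosolic Hsp70 that refolds them with ATP. In unstressed worms the hsp-16 genes and hsp-70 are known to be nearly silent, and for that reason they are widely used as reporters of heat shock. All values are log2 values from the authors' GCRMA processing, so a difference of 1 is a 2-fold change. Levels of different probe sets are not compared with each other.

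The hsp-6 transcript was lowest with hsp-6 RNAi alone. It read 9.29 to 10.08 with hsf-1 double RNAi, 9.13 to 10.26 with dve-1-labelled double RNAi, 6.60 to 6.97 with hsp-6 RNAi and 10.96 to 11.30 with empty vector. Both double RNAi groups thus had more hsp-6 transcript than hsp-6 RNAi alone, by 2.79 and 2.98 (limma, adjusted p = 0.00236 and 0.000859). By a further hsp-6 probe set the differences were 1.99 and 2.25 (adjusted p = 0.0228 and 0.0138). The hsf-1 transcript read 6.68 to 7.24 with hsf-1 double RNAi and 7.63 to 7.94 with hsp-6 RNAi, a difference that did not pass the test (adjusted p = 0.121). Nor did that of a further hsf-1 probe set (-0.78, adjusted p = 0.263). With empty vector the first hsf-1 probe set read 8.26 to 8.80. It differed from empty vector by -0.74 with hsp-6 RNAi and -1.64 with hsf-1 double RNAi (limma adjusted p = 0.214 and 0.0847). Neither difference passed the test. A dve-1 probe set read 7.14 to 8.90 with dve-1-labelled double RNAi and 5.09 to 5.83 with hsp-6 RNAi, so it was higher in the arrays labelled for its knockdown (adjusted p = 0.0297). That probe set also read 8.18 in replicate 3 of hsf-1 double RNAi, against 6.25 and 5.87 in its other replicates, and a further dve-1 probe set differed little between the dve-1-labelled arrays and hsp-6 RNAi (0.24, adjusted p = 0.625). Since no label gives the cultures behind the replicates, the p-values cover the spread among these samples, which may be technical. Replicates 1 and 3 of hsp-6 RNAi were the most alike of all pairs of arrays. Replicate 3 of hsf-1 double RNAi and replicate 2 of the dve-1-labelled group stood apart from the other 10 arrays on the first principal component, so results on the 4 genes, on their paralogs and on the gene lists are also given without them. The difference between these 2 arrays had an SD of 0.528 over the tested probe sets, below the 0.682 to 1.11 between arrays within hsf-1 double RNAi and the 0.701 to 1.16 within the dve-1-labelled group. Other pairs across these groups were also closer than arrays within either group. They were replicate 1 of each (0.449), and hsf-1 double RNAi replicate 2 with dve-1-labelled replicate 3 (0.549). Whether labels were exchanged was not tested, so the differences involving either double RNAi group hold for the arrays as labelled.

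The hsp-16.2 transcript was high in every hsp-6 RNAi array and much lower in the other 9 arrays. It read 6.34, 6.32 and 9.60 in replicates 1, 2 and 3 of hsf-1 double RNAi. It read 8.09, 9.66 and 8.01 with dve-1-labelled double RNAi, 13.12, 12.88 and 13.20 with hsp-6 RNAi, and 7.67, 7.66 and 6.99 with empty vector. The hsp-6 RNAi arrays did not overlap with any other group, and replicate 3 of hsf-1 double RNAi lay 3.25 above the next array of its group.

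The neighbouring gene hsp-16.41 read alike. Its values were 6.12, 6.63 and 9.16 with hsf-1 double RNAi, 8.34, 9.21 and 8.15 with dve-1-labelled double RNAi, 13.27, 12.76 and 12.98 with hsp-6 RNAi, and 7.74, 8.0 and 6.1 with empty vector. Again hsp-6 RNAi stood clear of the other groups, and the hsf-1 double RNAi arrays reached from the lower end of the empty vector range to above it.

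The transcript of hsp-17, a further small heat shock protein gene, was highest in the hsp-6 RNAi arrays as well. It read 7.99, 8.91 and 10.58 with hsf-1 double RNAi, 8.98, 10.83 and 10.32 with dve-1-labelled double RNAi, 13.04, 12.22 and 12.80 with hsp-6 RNAi, and 6.84, 8.46 and 9.43 with empty vector. Both double RNAi groups overlapped with the empty vector arrays, which spanned 2.60 for hsp-17, 1.90 for hsp-16.41, 0.928 for hsp-70 and 0.675 for hsp-16.2.

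For hsp-70, unlike the other 3 genes, the arrays of the double RNAi groups did not overlap with each other. It read 7.16, 6.1 and 9.01 with hsf-1 double RNAi, 9.08, 9.27 and 9.65 with dve-1-labelled double RNAi, 13.13, 12.62 and 13.03 with hsp-6 RNAi, and 6.83, 6.67 and 5.90 with empty vector. The 3 dve-1-labelled arrays lay between the hsp-6 RNAi and the empty vector arrays, and above the 3 hsf-1 double RNAi arrays. The hsf-1 double RNAi arrays overlapped with empty vector.

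**Figure D1:**
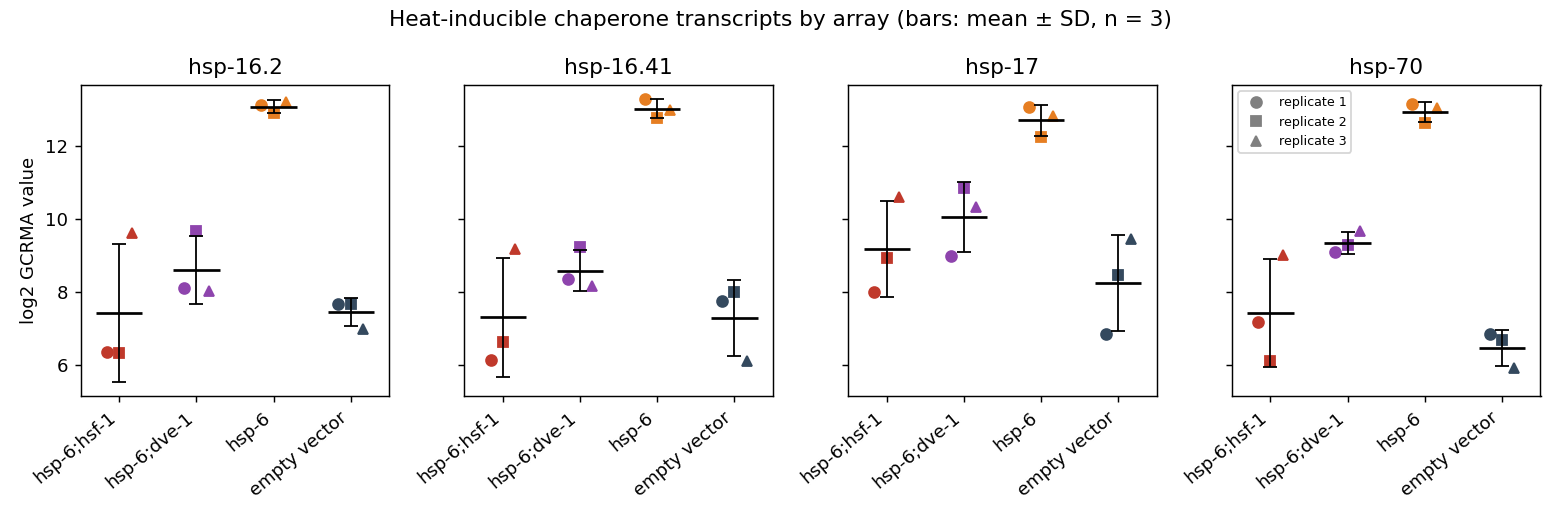
Log2 GCRMA value (vertical axis) of hsp-16.2, hsp-16.41, hsp-17 and hsp-70 in each of the 12 arrays, by RNAi group; marker shapes give the replicate, and black bars the mean ± SD (n = 3). The hsp-6 RNAi arrays are the highest for each gene, from 12.22 to 13.27, and replicate 3 of hsp-6;hsf-1 lies above the other arrays of its group.

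All 4 genes rose with hsp-6 RNAi relative to empty vector, by 21.7-fold to 87.8-fold. The mean of hsp-70 was 12.92 ± 0.27 with hsp-6 RNAi and 6.47 ± 0.50 with empty vector (SD, n = 3 each), a log2 difference of 6.46 (95% confidence interval 5.2 to 7.71, limma adjusted p = 0.000557). The mean of hsp-16.41 was 13.005 ± 0.26 with hsp-6 RNAi and 7.28 ± 1.03 with empty vector, a difference of 5.72 (4.16 to 7.28, adjusted p = 0.00274). For hsp-16.2 the means were 13.07 ± 0.17 with hsp-6 RNAi and 7.44 ± 0.39 with empty vector, a difference of 5.63 (3.97 to 7.28, adjusted p = 0.00373). For hsp-17 they were 12.69 ± 0.42 with hsp-6 RNAi and 8.24 ± 1.31 with empty vector, a difference of 4.44 (2.80 to 6.08, adjusted p = 0.0111). Over all probe sets tested, 1.97% were called higher in this comparison and the median difference was -0.02, against a median of 5.67 for the 4 genes. Among the rises of all 12057 probe sets, hsp-70 ranked 3, hsp-16.41 ranked 6, hsp-16.2 ranked 7 and hsp-17 ranked 14. The calls on hsp-70, hsp-16.2 and hsp-16.41 held without any 1 of the 12 arrays, with adjusted p up to 0.0224. For hsp-17 the adjusted p was 0.0587 when replicate 1 of hsp-6 RNAi was left out, 0.0523 when replicate 3 was, and 0.0575 with both averaged into 1 array, so its call was lost each time.

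With hsf-1 RNAi added to hsp-6 RNAi, all 4 genes fell relative to hsp-6 RNAi alone. The mean of hsp-16.41 was 7.30 ± 1.62 with hsf-1 double RNAi and 13.005 ± 0.26 with hsp-6 RNAi (SD, n = 3 each), a log2 difference of -5.70 (95% confidence interval -7.26 to -4.14, limma adjusted p = 0.00506). For hsp-16.2 the means were 7.42 ± 1.89 with hsf-1 double RNAi and 13.07 ± 0.17 with hsp-6 RNAi, a difference of -5.65 (-7.30 to -3.99, adjusted p = 0.00604). These were the 2 deepest falls of all probe sets tested, and hsp-70 ranked 3. The mean of hsp-70 was 7.42 ± 1.47 with hsf-1 double RNAi and 12.92 ± 0.27 with hsp-6 RNAi, a difference of -5.50 (-6.76 to -4.25, adjusted p = 0.00227). For hsp-17 the means were 9.16 ± 1.32 with hsf-1 double RNAi and 12.69 ± 0.42 with hsp-6 RNAi, a difference of -3.53 (-5.17 to -1.89, adjusted p = 0.0257). In this comparison 2.76% of probe sets were called lower, and the median difference was -0.10 over all probe sets and -5.58 over the 4 genes. The hsp-6 RNAi arrays enter both this comparison and the one with empty vector, so the fall and the rise are not independent measurements. For hsp-17 the call was lost when replicate 1, 2 or 3 of hsp-6 RNAi was left out (adjusted p = 0.0955, 0.0705 and 0.0922), and when replicate 1 of hsf-1 double RNAi was (0.104). The calls on the other 3 genes held without any 1 array. Without the 2 arrays that stand apart, the differences were -6.63 for hsp-16.41, -6.74 for hsp-16.2, -6.30 for hsp-70 and -4.24 for hsp-17, and all 4 passed the test.

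In the dve-1-labelled arrays, 3 of the 4 genes fell relative to hsp-6 RNAi. The mean of hsp-16.2 was 8.59 ± 0.93 with dve-1-labelled double RNAi and 13.07 ± 0.17 with hsp-6 RNAi (SD, n = 3 each), a log2 difference of -4.48 (95% confidence interval -6.13 to -2.83, limma adjusted p = 0.0106). For hsp-16.41 the means were 8.57 ± 0.56 with dve-1-labelled double RNAi and 13.005 ± 0.26 with hsp-6 RNAi, a difference of -4.44 (-6.0 to -2.87, adjusted p = 0.00896). For hsp-70 they were 9.33 ± 0.29 with dve-1-labelled double RNAi and 12.92 ± 0.27 with hsp-6 RNAi, a difference of -3.59 (-4.84 to -2.34, adjusted p = 0.00842). The mean of hsp-17 was 10.05 ± 0.96 with dve-1-labelled double RNAi and 12.69 ± 0.42 with hsp-6 RNAi, and its difference of -2.64 (-4.28 to -1.0) did not pass the test (adjusted p = 0.0606), although the arrays did not overlap. Here 2.96% of probe sets were called lower, and the median difference was -0.06 over all probe sets and -4.01 over the 4 genes. For hsp-16.2 the call was lost when replicate 1 or 3 of hsp-6 RNAi was left out (adjusted p = 0.0536 and 0.0548), when both were averaged into 1 array (0.0539), and when dve-1-labelled replicate 1 was left out (0.0525). The difference in hsp-17 passed when empty vector replicate 1 was left out (0.0484), when replicate 3 of hsf-1 double RNAi was (0.0333), and without the 2 arrays that stand apart (-3.03, 0.04).

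Of the 4 genes, hsp-70 was called higher in the dve-1-labelled arrays than with empty vector, and the other 3 were not. There hsp-70 averaged 9.33 ± 0.29, against 6.47 ± 0.50 with empty vector, a log2 difference of 2.87 or 7.29-fold (95% confidence interval 1.61 to 4.12, limma adjusted p = 0.0351). In this comparison 1.75% of probe sets were called higher, and the calls over all probe sets split into 211 higher and 63 lower. That split was 132 and 68 after another quantile normalization, and 219 and 154 with each array centred on its median. The call on hsp-70 rested on most arrays, since it was lost without any 1 empty vector array (adjusted p = 0.0897, 0.0504 and 0.118 without replicates 1, 2 and 3). Leaving out replicate 1, 2 or 3 of hsp-6 RNAi (0.0649, 0.0543 and 0.067) or dve-1-labelled replicate 1 or 2 (0.0651 and 0.118) also ended it, while the difference stayed between 2.58 and 3.05. With the replicate number as a block shared by all RNAi groups, the adjusted p was 0.0515. The calls over all probe sets then numbered 149 rather than 274. The same-numbered arrays of these 2 groups correlated, but not those of all groups, and a block on these 2 groups alone was not fitted. Without the 2 arrays that stand apart the difference was 2.90 and passed (adjusted p = 0.0112). For hsp-17 the difference from empty vector was 1.80 (0.16 to 3.44, adjusted p = 0.162), for hsp-16.41 it was 1.28 (-0.28 to 2.85, adjusted p = 0.255), and for hsp-16.2 it was 1.15 (-0.51 to 2.80, adjusted p = 0.325).

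Between hsf-1 double RNAi and empty vector no difference in the 4 genes was called by limma, and none had an unadjusted p below 0.05. The differences were -0.02 for hsp-16.2 (95% confidence interval -1.68 to 1.63), 0.02 for hsp-16.41 (-1.54 to 1.58), 0.92 for hsp-17 (-0.72 to 2.56) and 0.95 for hsp-70 (-0.30 to 2.21). Intervals this wide do not show that the levels were equal. In this comparison 0% of the 12057 probe sets were called, while 3593 had an unadjusted p below 0.05. Without the 2 arrays that stand apart, the differences were -1.11 for hsp-16.2 (adjusted p = 0.101), -0.91 for hsp-16.41 (0.317), 0.20 for hsp-17 (0.883) and 0.16 for hsp-70 (0.825).

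**Figure D2:**
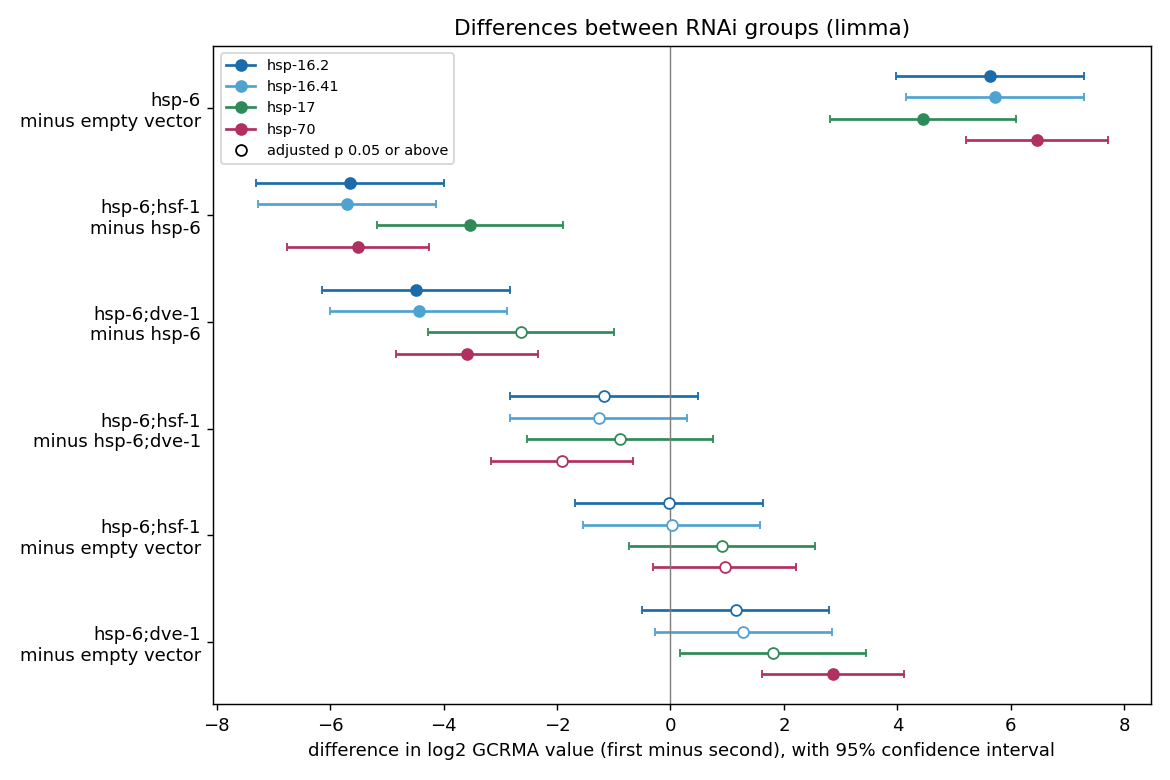
Difference in log2 GCRMA value (horizontal axis) for the 4 genes in 6 comparisons between RNAi groups, with 95% confidence intervals from limma; filled points have an adjusted p below 0.05. The rise with hsp-6 RNAi lies between 4.44 and 6.46, and the 4 intervals of hsp-6;hsf-1 against empty vector include 0.

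All 4 genes averaged lower with hsf-1 double RNAi than with dve-1-labelled double RNAi, but no difference between these groups passed the test. The largest was in hsp-70, which averaged 7.42 ± 1.47 with hsf-1 double RNAi and 9.33 ± 0.29 with dve-1-labelled double RNAi (SD, n = 3 each). Its difference was -1.91 (95% confidence interval -3.17 to -0.66, limma adjusted p = 0.807), and it was the 1 of 4 genes with an unadjusted p below 0.05 and with arrays that did not overlap. For hsp-16.41 the difference was -1.26 (-2.83 to 0.30), for hsp-16.2 it was -1.17 (-2.82 to 0.49) and for hsp-17 it was -0.89 (-2.52 to 0.75), each with an adjusted p of 1. Over all probe sets 0.232% were called in this comparison, and 277 of 12057 had an unadjusted p below 0.05. How many of them had arrays that did not overlap was not counted, so that feature cannot set hsp-70 apart from the array as a whole. Without hsf-1 double RNAi replicate 3 the hsp-70 difference was -2.71 and passed (adjusted p = 0.017). Without the 2 arrays that stand apart hsp-70 differed by -2.74 (adjusted p = 0.0532), while hsp-16.2 differed by -1.72 and passed (adjusted p = 0.0349).

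By their means, the groups stood in the order hsp-6 RNAi, dve-1-labelled double RNAi, hsf-1 double RNAi and empty vector for hsp-70 and hsp-17. For hsp-16.41 and hsp-16.2 the order began in the same way, and hsf-1 double RNAi and empty vector had no order, with differences of 0.02 and -0.02. Of the neighbours in these orders, hsp-6 RNAi and dve-1-labelled double RNAi differed by the test for hsp-70, hsp-16.2 and hsp-16.41, and no other neighbours did.

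Within hsf-1 double RNAi the same array was the highest for each of the 4 genes, while in the dve-1-labelled group hsp-70 had a different highest array from the other 3 genes. Averaged over the 4 genes and set against the empty vector mean, replicates 1, 2 and 3 of hsf-1 double RNAi lay at -0.46, -0.37 and 2.23 on the log2 scale. The dve-1-labelled arrays lay at 1.26, 2.38 and 1.67, the hsp-6 RNAi arrays at 5.78, 5.26 and 5.64, and the empty vector arrays at -0.09, 0.34 and -0.25. Replicate 3 of hsf-1 double RNAi was the highest array of its group for all 4 genes, by 1.68 to 3.25, and it lay within the range of the dve-1-labelled arrays for hsp-16.2, hsp-16.41 and hsp-17. Replicate 2 of the dve-1-labelled group was the highest of its group for hsp-16.2, hsp-16.41 and hsp-17, and replicate 3 for hsp-70.

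Other measures also differed between the groups. The hsp-6 transcript was less reduced in both double RNAi groups, as given above. For hsp-6, replicates 1, 2 and 3 of hsf-1 double RNAi read 10.08, 9.29 and 9.52. The dve-1-labelled arrays read 10.26, 10.06 and 9.13. By the further hsp-6 probe set the values were 7.31, 6.12 and 6.14, and 7.45, 6.35 and 6.55. In each group, replicate 1 had the most hsp-6 transcript by both probe sets and the lowest average of the 4 genes. The order of dve-1-labelled replicates 2 and 3 for hsp-6 differed between the probe sets. The hsf-1 transcript read 6.84, 7.24 and 6.68 with hsf-1 double RNAi and 8.12, 6.87 and 8.04 in the dve-1-labelled arrays, so dve-1-labelled replicate 2 lay within the range of the hsf-1 double RNAi arrays. The part of either transcript in the fall of the 4 genes was not tested.

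**Figure D3:**
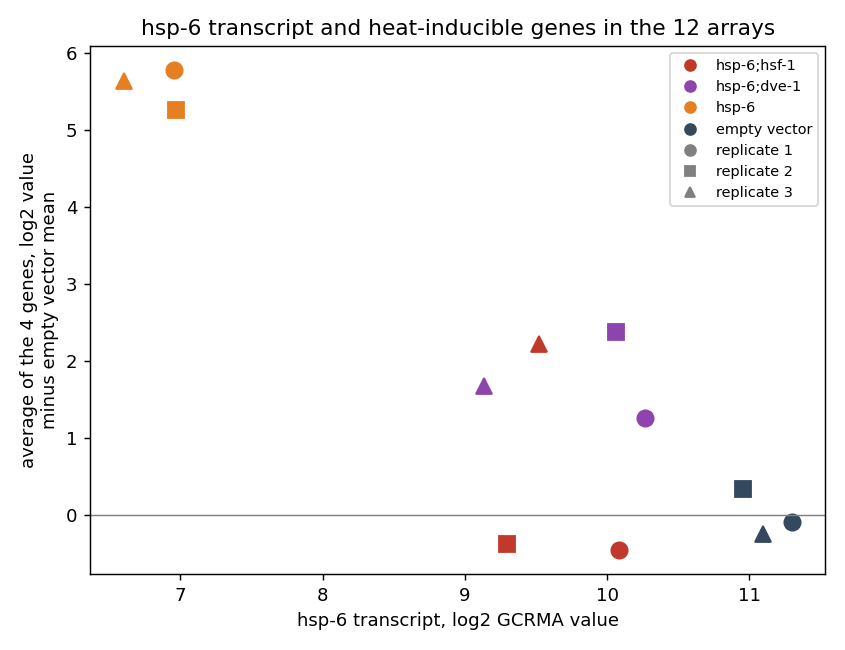
Average of the 4 genes, as log2 value minus the empty vector mean (vertical axis), against the log2 GCRMA value of hsp-6 (horizontal axis) in each of the 12 arrays; colours give the RNAi group and marker shapes the replicate. The hsp-6 RNAi arrays lie at 5.26 to 5.78 with the least hsp-6 transcript, and the 6 double RNAi arrays, with hsp-6 between 9.13 and 10.26, lie at -0.46 to 2.38.

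The summed signals of sperm, cuticle and muscle transcripts were also higher, and that of oocyte and eggshell transcripts lower, in the double RNAi arrays than with hsp-6 RNAi. Of 17 sperm genes listed, 13 were tested, of which 8 rose with hsf-1 double RNAi and 7 in the dve-1-labelled arrays relative to hsp-6 RNAi (limma), and none fell. Of those called, all but ssp-16 have probe sets with the suffix _x_at, which marks probes that can match other transcripts. These counts may therefore include signal shared between genes. Over all probe sets 2.91% rose with hsf-1 double RNAi and 2.78% in the dve-1-labelled arrays. Summed over the 15 sperm genes on the array, the log2 signal was 13.19 to 14.88 with hsf-1 double RNAi, 11.80 to 15.15 with dve-1-labelled double RNAi, 8.36 to 9.86 with hsp-6 RNAi and 8.45 to 11.40 with empty vector. The sperm genes spe-9 and fer-1 were at the lowest deposited value in every array. Of 11 cuticle collagen genes tested 5 rose in each double RNAi group, and of 10 muscle genes 5 rose with hsf-1 double RNAi and 4 in the dve-1-labelled arrays. The summed collagen signal was 15.19 to 16.13 with hsf-1 double RNAi, 15.04 to 16 with dve-1-labelled double RNAi, 14.07 to 14.23 with hsp-6 RNAi and 14.06 to 14.98 with empty vector, and the muscle signal 13.75 to 14.79, 13.36 to 14.60, 13.09 to 13.19 and 13.23 to 13.53 in the same groups. Summed over 12 oocyte and eggshell genes, the log2 signal was 15.60 to 16.21 with hsf-1 double RNAi, 15.68 to 16.34 with dve-1-labelled double RNAi, 16.52 to 16.54 with hsp-6 RNAi and 16.30 to 16.74 with empty vector. Of these genes limma called perm-2 lower with hsf-1 double RNAi (-0.52, adjusted p = 0.0362) and none in the dve-1-labelled arrays. There 4 of the 12 had an unadjusted p below 0.05, as did 2918 of the 12057 probe sets tested. Of 6 intestine genes cpr-1, which encodes a cysteine protease, rose in both groups, by 2.80 (adjusted p = 0.0153) and 3.14 (0.00708), and of 6 neuron genes none was called. The median over the 6 intestine genes was -0.09 with hsf-1 double RNAi and -0.28 in the dve-1-labelled arrays. Without the 2 arrays that stand apart, cpr-1 and ges-1 were the intestine genes called, 1 higher and 1 lower in each group. When the 2 arrays that stand apart were left out, 7 sperm genes rose with hsf-1 double RNAi and 1 in the dve-1-labelled arrays, 5 and 3 collagen genes rose, and 4 and 3 muscle genes rose, each relative to hsp-6 RNAi. In that fit 1 collagen gene was called lower in the dve-1-labelled arrays, and no oocyte or eggshell gene was called in either group. Of all probe sets 5.99% and 6.39% were then called in either direction. With hsp-6 RNAi against empty vector, no sperm or muscle gene was called by limma and 1 collagen gene was, rol-6. In whole worms, fewer cells of a type and less RNA per cell cannot be told apart, and the part of these transcripts in the fall of the 4 genes was not tested.

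Probe sets shared by close relatives of the 4 genes were also highest, or among the highest, with hsp-6 RNAi. On this array 2 probe sets are each annotated to a pair of other hsp-16 genes, and 2 to a pair of inducible Hsp70 genes, so no gene is named for them. A further Hsp70 gene listed as an inducible paralog, F11F1.1, has 2 probe sets of its own. The one that stands for it did not pass the filter on low values, so F11F1.1 was not tested. Both hsp-16 pair probe sets rose with hsp-6 RNAi against empty vector, 189087_s_at by 4.57 (limma adjusted p = 0.0023) and 172901_x_at by 3.33 (adjusted p = 0.0032). Both fell with hsf-1 double RNAi relative to hsp-6 RNAi, with log2 differences of -3.36 (adjusted p = 0.012) and -2.68 (adjusted p = 0.0137). In the dve-1-labelled arrays 189087_s_at fell, with a difference of -2.61 (adjusted p = 0.0217), and 172901_x_at differed by -1.53 (adjusted p = 0.0608). Both passed in both groups without the 2 arrays that stand apart, with differences from hsp-6 RNAi of -4.12 and -3.32 for hsf-1 double RNAi and -3.03 and -1.71 in the dve-1-labelled arrays.

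The probe sets of the Hsp70 pair differed widely among the arrays of each double RNAi group. Of its probe sets, 190958_s_at read 8.94, 8.36 and 12.74 in replicates 1, 2 and 3 of hsf-1 double RNAi, 10.29, 11.67 and 9.25 in the dve-1-labelled arrays, 12.65, 11.81 and 12.69 with hsp-6 RNAi, and 8.23, 8.26 and 8.26 with empty vector. The other, 171941_s_at, read 9.54, 9.08 and 13.02 with hsf-1 double RNAi, 10.84, 12.21 and 9.68 in the dve-1-labelled arrays, 12.98, 12.24 and 12.99 with hsp-6 RNAi, and 8.97, 9.06 and 9.29 with empty vector. In replicate 3 of hsf-1 double RNAi both probe sets thus reached the level of the hsp-6 RNAi arrays, whereas hsp-70 there read 9.01, below the 12.62 of the lowest hsp-6 RNAi array. Against empty vector, hsp-6 RNAi raised 190958_s_at by 4.13 (limma adjusted p = 0.0447), and 171941_s_at differed by 3.63 (adjusted p = 0.0553). Neither passed the test between either double RNAi group and hsp-6 RNAi, with differences of -2.37 and -2.19 for hsf-1 double RNAi (adjusted p = 0.156 and 0.159) and -1.97 and -1.82 in the dve-1-labelled arrays (0.227 and 0.232). These results rested on the 2 arrays that stand apart. Without them both probe sets rose with hsp-6 RNAi against empty vector, by 4.13 and 3.63 (adjusted p = 0.000566 and 0.000806). Both then fell relative to hsp-6 RNAi, with differences of -3.73 and -3.42 for hsf-1 double RNAi (adjusted p = 0.00289 and 0.00424) and -2.61 and -2.47 in the dve-1-labelled arrays (0.00684 and 0.00775). Whether the hsp-70 probe set, whose suffix marks probes that can match more than 1 transcript, also detects these genes was not tested.

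**Figure D4:**
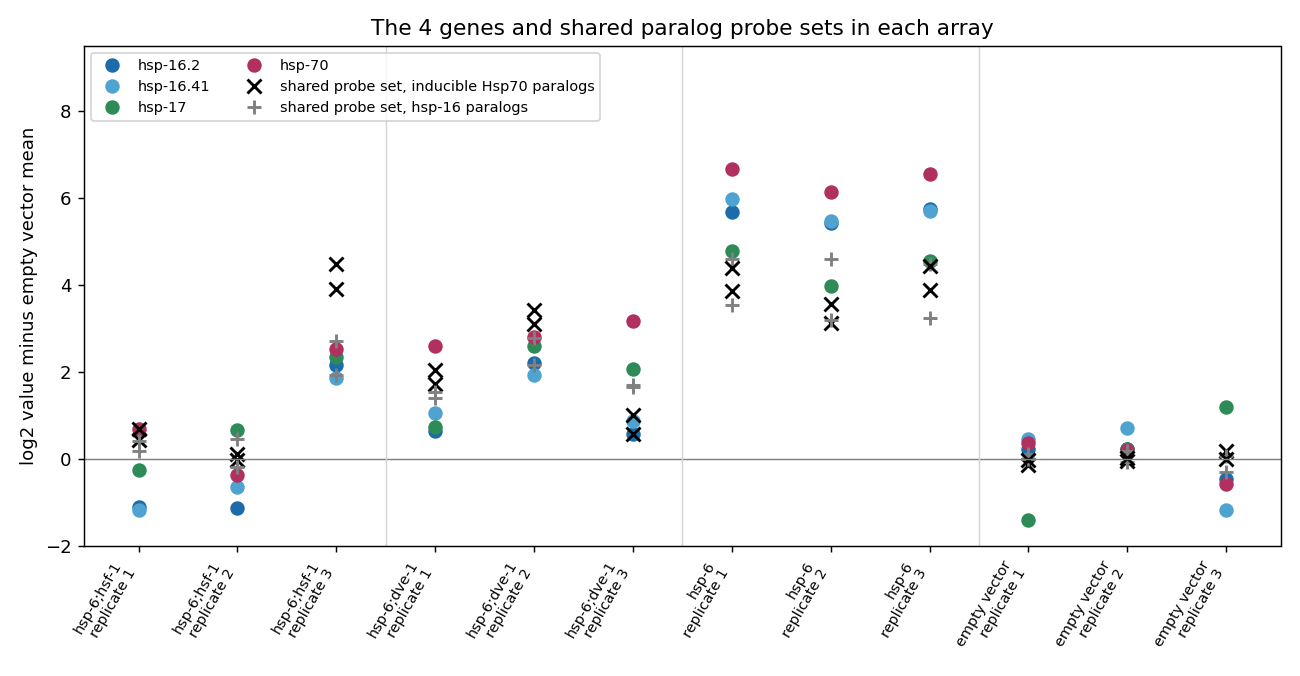
Log2 value minus the mean of the empty vector arrays (vertical axis) for the 4 genes (dots) and for 4 probe sets shared by paralogs (crosses and plus signs) in each of the 12 arrays. In replicate 3 of hsp-6;hsf-1 the dots lie at 1.87 to 2.54, while the crosses of the Hsp70 paralogs stand higher.

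Other genes of the heat shock response were called about as often as probe sets overall. The 24 tested genes of 4 lists were other small heat shock genes, constitutive cytosolic chaperones, cochaperones, and hsf-1 with its regulators. With hsp-6 RNAi against empty vector limma called none of the 24, against 2.74% of all probe sets. An unadjusted p below 0.05 was found for 5 of the 24 and for 2609 of the 12057 probe sets tested. The 24 differences ran from -0.74 to 0.95 with a median of 0.17. In this comparison 4 of the 24 were called without the 2 arrays that stand apart, hsp-25, chn-1 and unc-23 higher and hsf-1 lower, against 13.9% of all probe sets. Among them the constitutive Hsp70 gene hsp-1 differed by -0.33 (adjusted p = 0.258), the Hsp90 gene hsp-90 by 0.21 (adjusted p = 0.454), the Hsp70 exchange factor gene hsp-110 by 0.24 (adjusted p = 0.422), and the Hsp40 gene dnj-13 by -0.10 (adjusted p = 0.793). The inhibitor of HSF-1, hsb-1, differed by 0.16 (adjusted p = 0.628), and the HSF-1 regulator ddl-1 by -0.49 (adjusted p = 0.375).

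Relative to hsp-6 RNAi 1 of the 24 genes was called with hsf-1 double RNAi and 2 in the dve-1-labelled arrays, against 5.67% and 5.74% of all probe sets, so neither count stands out from the array as a whole. The small heat shock gene hsp-12.1 read 5.71, 5.48 and 6.29 with hsf-1 double RNAi, 5.98, 6.55 and 5.94 in the dve-1-labelled arrays, 4.21, 4.50 and 3.97 with hsp-6 RNAi, and 4.21, 5.10 and 5.41 with empty vector. With hsp-6 RNAi, where its values lay near the filter's cut of log2 4, it differed from empty vector by -0.68 and was not called (limma adjusted p = 0.293). Relative to hsp-6 RNAi it moved opposite to the hsp-16 genes. It rose by 1.6 with hsf-1 double RNAi (adjusted p = 0.0287) and by 1.93 in the dve-1-labelled arrays (adjusted p = 0.0152). Without the 2 arrays that stand apart, these rises were 1.37 (adjusted p = 0.0522) and 1.73 (0.026). The gene hsp-110 fell in the dve-1-labelled arrays relative to hsp-6 RNAi (log2 difference -0.65, adjusted p = 0.0419), and its other probe set differed by -0.57 (adjusted p = 0.126); without the 2 arrays the first differed by -0.51 and was not called (0.0779). For hsp-90 the probe sets had similar differences on either side of the threshold. They were -0.50 and -0.44 for 191090_at with hsf-1 double RNAi and in the dve-1-labelled arrays (adjusted p = 0.0294 and 0.0431), and -0.55 and -0.51 for 173055_s_at (0.0547 and 0.0698). Without the 2 arrays 191090_at kept its call with hsf-1 double RNAi (-0.43, limma adjusted p = 0.0309) but not in the dve-1-labelled arrays (-0.33, 0.0597). The probe set 173055_s_at was then called in neither group (0.0522 and 0.0874). A further probe set of the Hsp40 gene dnj-19 was called lower in the dve-1-labelled arrays (-0.86, adjusted p = 0.0373), where the one that stands for the gene differed by -0.54 (0.155). The further probe set kept its call without the 2 arrays (-0.69, limma adjusted p = 0.0371). The median over the 24 genes was -0.29 with hsf-1 double RNAi and -0.13 in the dve-1-labelled arrays, against -0.10 and -0.06 over all probe sets tested.

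**Figure D5:**
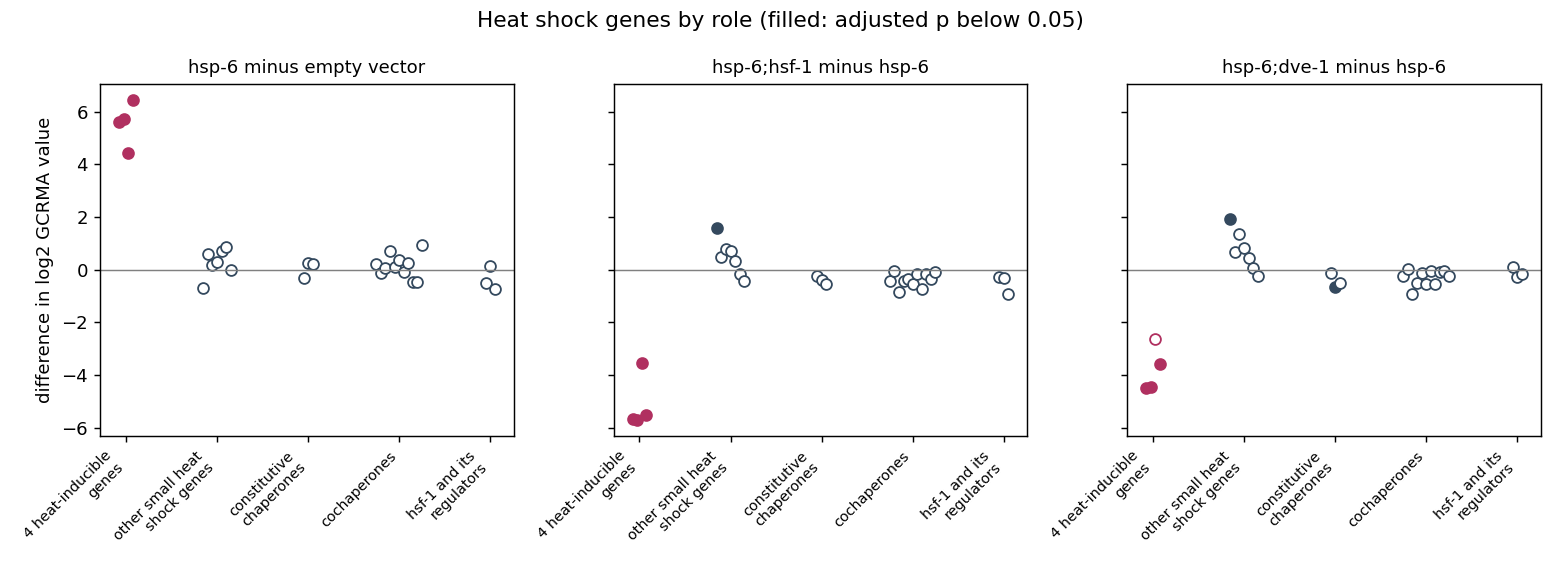
Difference in log2 GCRMA value (vertical axis) for the 4 heat-inducible genes and for 24 other heat shock genes by role, in 3 comparisons; filled points have an adjusted p below 0.05. The 4 genes lie between 4.44 and 6.46 with hsp-6 RNAi against empty vector, and the other 24 between -0.74 and 0.95.

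The pattern of the 4 genes across the 12 arrays was compared by the root mean square difference between log2 profiles, each centred on its own mean. The closest pair were the neighbours hsp-16.2 and hsp-16.41, at 0.36. The pairs of hsp-70 with hsp-16.41 and hsp-16.2 lay at 0.76 and 0.80, and the 3 pairs with hsp-17 at 1.15 to 1.26. From the average of the 4 genes, of which each is part, hsp-16.2, hsp-16.41, hsp-70 and hsp-17 lay at 0.41, 0.46, 0.56 and 0.86. Outside them, the 6 nearest of 11457 probe sets with 1 symbol were K01C8.2 (0.99), K02A2.5 (1.00), Y39E4B.11 (1.07), osg-1 (1.1), the neuropeptide receptor gene pdfr-1 (1.13) and lact-4 (1.14). All 12 arrays share the normalization, and with Pearson correlation as the measure none of the 6 was among the 6 nearest, so the choice of these genes rests on the measure.

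Of these 6, K01C8.2 read 2.87, 5.07 and 4.21 with hsf-1 double RNAi, 4.33, 5.09 and 4.33 in the dve-1-labelled arrays, 7.39, 7.84 and 7.49 with hsp-6 RNAi, and 2.92, 2.26 and 3.19 with empty vector. Its replicate 3 of hsf-1 double RNAi was therefore not the highest of its group, unlike in the 4 chaperone genes. The receptor gene pdfr-1 read 4.54, 5.56 and 5.39 with hsf-1 double RNAi, 4.92, 4.78 and 5.22 in the dve-1-labelled arrays, 8.27, 8.85 and 8.0 with hsp-6 RNAi, and 5.32, 4.80 and 3.95 with empty vector. For it, both double RNAi groups overlapped with empty vector. The empty vector values of K01C8.2, K02A2.5, Y39E4B.11 and osg-1 lay near the lowest deposited value of 2.16, so their rises may be understated, while none of the 4 chaperone genes read below 5.90 in any array.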

How the data were processed

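Total RNA of 12 whole-worm samples was measured on Affymetrix arrays with biotin label, per the labels' protocols. The deposited values are on the log2 scale; GCOS 1.4 and GCRMA are named in the submitters' processing notes, with their settings not stated in labels or headers. Arrays carry no count depth, and their number limits the precision. Of 22625 probe sets, 77 controls were left out, and 12057 with a log2 value above 4 in at least 3 arrays were tested, in 1 limma 3.58.1 fit (R 4.3.3) of 4 group means to 12 arrays with an intensity trend (8 residual and 3.16 prior degrees of freedom). Tests were two-sided. Calls were made at 0.05 after Benjamini-Hochberg adjustment across the 12057 probe sets within each of 6 comparisons. The fit was tested on simulated data.

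The 4 genes and the lists were chosen with earlier results of these data known. Named are the 4 genes, the RNAi targets, probe sets of their paralogs, list genes called in a comparison and the 6 nearest genes; further list genes were named with their values known. A gene with several probe sets stands by the one with the highest mean. A planned search for heat shock elements was not run, since no sequence was used here. The alternatives were other filters, normalizations, variance models, a floor, the compared groups alone, a replicate block and leaving out each array. The deviations of same-numbered arrays from their group means correlated above 0.1 in every pair only between the dve-1-labelled and empty vector groups (0.362, 0.255 and 0.113). The labels do not state a pairing. The replicate block was a term shared by all RNAi groups. These include the double RNAi groups, whose replicates 2 and 3 correlated with each other at -0.739 and -0.761. No block was fitted to the dve-1-labelled and empty vector arrays alone. Added after seeing the data were hsp-6 RNAi replicates 1 and 3 averaged and a fit without 2 arrays that stand apart. Figures used matplotlib 3.10.9 in Python 3.11.15.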

Additional observations from a re-analysis of the deposited data

How the results depend on the processing

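Most settings kept the direction and side of the threshold of the 24 differences in the 4 genes. The 3 differences that involve hsp-6 RNAi for hsp-16.41 and for hsp-70, and those of hsp-16.2 in hsp-6 RNAi against empty vector and in hsf-1 double RNAi against hsp-6 RNAi, passed under every setting run. Without the filter hsp-17 lost its call in hsf-1 double RNAi against hsp-6 RNAi (-3.53, limma adjusted p = 0.086) and hsp-70 in the dve-1-labelled arrays against empty vector (2.87, 0.0987). Calls over all probe sets then numbered 223 and 383 for the hsf-1 double and dve-1-labelled groups against hsp-6 RNAi, 17 between them, and 4 and 83 against empty vector. Between the double RNAi groups a minimum of log2 6 gave 6 calls and a floor of log2 4 gave 16. The variance model without trend gave 1 call for hsf-1 double RNAi against empty vector. A fit of the compared groups alone gave 1049 calls for hsp-6 RNAi against empty vector, 448 and 433 for the double RNAi groups against hsp-6 RNAi, 1 between them, and 36 for the dve-1-labelled arrays against empty vector, and hsp-17 in the dve-1-labelled arrays against hsp-6 RNAi passed (-2.64, 0.0357).

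Equal replicate numbers were no sign of pairing over all groups, where 8 of 18 same-numbered pairs correlated above 0.1 (range -0.76 to 0.61) and 6 of 12 arrays matched their own number best; the dve-1-labelled and empty vector arrays were the exception. With the replicate number as a block, calls numbered 327 and 384 against hsp-6 RNAi, 15 between the double RNAi groups, and 149 for the dve-1-labelled arrays against empty vector. Under this block hsp-17 in the dve-1-labelled arrays against hsp-6 RNAi passed (-2.64, adjusted p = 0.0453) and hsp-70 against empty vector did not (2.87, 0.0515), and no other call on the 4 genes changed.

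With hsp-6 RNAi replicates 1 and 3 averaged, calls numbered 102 for hsp-6 RNAi against empty vector, 35 and 106 against hsp-6 RNAi, 15 between the double RNAi groups and 74 for the dve-1-labelled arrays against empty vector. The calls on hsp-17 (4.33 against empty vector and -3.41 for hsf-1 double RNAi), hsp-16.2 (-4.43 in the dve-1-labelled arrays) and hsp-70 (2.87 there against empty vector) were then lost. Without the 2 arrays that stand apart, hsp-6 RNAi against empty vector had 1681 calls, hsp-17 in the dve-1-labelled arrays differed from hsp-6 RNAi by -3.03, hsp-16.2 differed between the double RNAi groups by -1.72, and hsp-16.41 turned to -0.91 for hsf-1 double RNAi against empty vector. It was -0.0297 after quantile normalization.

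Leaving out 1 array at a time gave 97 to 739 calls for hsp-6 RNAi against empty vector, 35 to 1433 and 101 to 1242 for the hsf-1 double and dve-1-labelled groups against hsp-6 RNAi, 11 to 25 between them, and 0 to 1047 and 43 to 1038 against empty vector. The differences then ran from 3.74 to 5.04 for hsp-17 with hsp-6 RNAi against empty vector, from -4.24 to -2.94 for it with hsf-1 double RNAi and from -3.03 to -2.11 in the dve-1-labelled arrays against hsp-6 RNAi. They ran from -5.02 to -4.19 for hsp-16.2 in the dve-1-labelled arrays, and for hsp-70 from 2.58 to 3.05 there against empty vector and from -2.71 to -1.25 between the double RNAi groups. For hsf-1 double RNAi against empty vector they ran from -1.11 to 0.53 for hsp-16.2, positive without empty vector replicate 1 or 2 (0.09 each) or hsf-1 double RNAi replicate 1 (0.52) or 2 (0.53), and from -0.91 to 0.61 for hsp-16.41, negative without empty vector replicate 3 (-0.57) or hsf-1 double RNAi replicate 3 (-0.91). The cause of these changes was not tested. By Pearson correlation 0 of the 6 nearest genes were shared. Each of the 4 genes has 1 probe set, so no other probe set could be used. The 3 arrays of a group limit the precision.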
